A study of Mus musculus with 8 samples.

Results

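The 8 genes described here, Serpina1a, Serpina1b, Serpina1c, Serpina1d, Serpina1e, Serpina3k, Serpina6 and Serpina7, are clade A serpins. They were taken by symbol from the 22059 genes counted in mouse liver. The list was chosen by measured values, since Serpina3k stood among the largest rises in read count from E18 to adult liver, so that comparison is described for the 8 genes and not tested. The samples were whole livers of FVB (FVB/NJ) mice, an inbred strain, with no genetic change and no treatment. There were 2 samples at each of 4 stages, which were E18 (before birth), P14 and P28 (in days after birth) and adult (3 months). RNA was poly(A)-selected and sequenced as read pairs of 100 bases. The paper calls the samples of a stage biological duplicates. The paper's Methods name males for the adult (3 months) whole livers. The labels give neither the sex of an animal nor whether livers were pooled. The p-values therefore measure the spread between these samples, and how far that is the spread between single animals is not known.

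Serpins are mostly secreted protease inhibitors that offer an exposed loop, the reactive centre loop, as bait and trap the protease that cuts it. Most clade A serpins of blood plasma are made by hepatocytes. Some have lost inhibition and carry hormones instead, as do Serpina6 (corticosteroid-binding globulin) and Serpina7 (thyroxine-binding globulin). Serpina1 encodes alpha-1-antitrypsin, the inhibitor of neutrophil elastase, and mice carry several copies whose number differs between inbred strains. Serpina3k (contrapsin) belongs to the mouse Serpina3 genes, a group of copies related to human antichymotrypsin.

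The name serpin A cluster fits 7 of the 8 genes. In GENCODE M21 on GRCm38, these 7 lie on chromosome 12, from Serpina6 (chr12:103646630-103657212, minus strand) through the Serpina1 copies to Serpina3k (chr12:104338486-104346144, plus strand). Serpina7 lies on the X chromosome (chrX:139079257-139085236, minus strand). The authors' files were made on mm9, so these positions say where the genes are and were not used to count reads.

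How alike the 5 Serpina1 copies are decides what their rows can tell. Their coding sequences, each 1239 bases long, were 96.3 to 98.5% identical over the 10 pairs, and 86 positions (6.9%) differed in at least 1 copy. The differences were densest in the stretch that encodes the reactive centre loop, where 13 of 30 bases varied. These are coding bases 1102 to 1131 of each copy in the reference genome, which is not that of FVB mice. They are shown because a read that covers them can tell the reference copies apart. Which of the 5 copies FVB mice carry, and with which bases, was not tested. Capitals mark the positions at which the 5 copies differ.
Serpina1a: gcagTtacagtcttACAaATGgTtCCtATG
Serpina1b: gcagCtacagtcttTGAaGCCgTtCCtATG
Serpina1c: gcagCtacagtcttACTaGCCgTtCCtTAT
Serpina1d: gcagCtacagtcttACAaGTCgCtACtTAT
Serpina1e: gcagCtacagtcttACAaGGCgGtTTtTTG
Serpina1c and Serpina1d were the closest pair here, with 4 different bases, and they shared their last codon, as did Serpina1a and Serpina1b. Other pairs differed at 6 to 8 bases.

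Outside such stretches many single reads cannot tell the copies apart. Of all windows of 100 bases along the GENCODE transcript of Serpina1a, 39.0% had no exact match in a transcript of another gene, and of those of Serpina1c 41.5%. This share was 70.7% for Serpina1d, 79.4% for Serpina1b and 85.2% for Serpina1e. It was 95.1% for Serpina3k, which shared 4.9% of its windows with Serpina3m, and 100.0% for Serpina6 and Serpina7. The deposited rows rest on transcripts of other lengths. In E18 replicate 1 Serpina1a had 143 reads and 0.788 RPKM, and Serpina1c 90 reads and 0.676 RPKM. Their GENCODE transcripts have 1360 and 1361 bases. The shares of windows are thus not shown for the rows as counted. How reads that match several copies were counted is not stated, and mm9 is the genome of another inbred strain, C57BL/6J. The 5 Serpina1 rows are therefore given singly as uncertain and also as a sum. Their level cannot be set against that of the other genes, since any reads left out for matching several copies are missing from the sum as well.

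The depth on genes was 68154675 to 106055723 reads a sample. Levels are the deposited RPKM, the read count of a gene over its transcript length in kilobases and over the mapped reads in units of 1000000, first for replicate 1 and then for replicate 2. Fold changes come from read counts after TMM scaling in edgeR, which sets the bulk of genes equal between samples. The TMM factors were 1.5393 to 1.5979 at E18 and 0.8466 to 0.8875 after birth. Without them the median log2 fold change of all genes is -0.90 from E18 to P14 and -0.95 from E18 to adult, in place of -0.03 and -0.11, so differences from E18 depend on the scaling. The 9 hepatocyte markers (Alb, Ttr and others) summed to 46800 to 52200 RPKM at E18, 149000 to 150000 at P14, 89300 to 93500 at P28 and 52200 to 60000 in adult. The 9 erythroid markers summed to 9680 to 12300 at E18 and to at most 123 later, with none at 0 in both samples of a stage. The 7 neutrophil markers summed to 1910 to 2370 at E18, 223 to 239 at P14 and at most 6.42 later, with 2 of them at 0 reads in both adult samples. The 9 pancreatic acinar markers reached 296 to 646 at E18, against 21.3 to 21.5 at P14, 81.8 to 85.3 at P28 and 74.6 to 87.2 in adult, with 2 of them at 0 reads in both samples at P14 and 3 in adult. Nearly all of the sums at P28 and in adult was Cela1, at 81.6 and 85.1 RPKM at P28. At P14 Cela1 had 15.8 RPKM in both samples, and Pnliprp1 had 5.48 and 5.06. Markers of macrophages, endothelium, stellate and mesenchymal cells, bile duct, and kidney and gut summed to at most 271 RPKM per list in any sample. The libraries also differed in sex-linked transcripts. E18 replicate 1 had 64.1 RPKM of Xist and 0 of Ddx3y, whereas E18 replicate 2 had 6.75 and 8.72, and P14 replicate 2 had 25.6 and 0.997. The other 5 libraries had at most 0.0425 RPKM of Xist and at least 9.22 of Ddx3y. Libraries with more Xist than that were all from E18 or P14. Sex and stage can thus not be fully told apart, also from P14 to P28. The part of these differences in the results was not tested, and in bulk tissue fewer cells of a type and less RNA per cell cannot be told apart.

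Serpina3k was the least abundant of the 8 genes at E18 and the most abundant from P14 on, by the rows as counted, and it ended among the most abundant transcripts of the liver. It was at 0.188 and 0.272 RPKM at E18, from 29 and 38 reads. P14 samples had 603 and 668 RPKM, P28 samples 3303 and 4377, and adult samples 4637 and 4919. No 2 stages overlapped, and the adult samples lay just above those of P28. By RPKM it ranked 15337 and 14574 among all 22059 genes at E18, 67 and 58 at P14, then 16 and 10 at P28 and lastly 13 and 11 in adult. Its fitted log2 difference was 12.29 from E18 to P14 and 15.22 from E18 to adult, the comparison it was chosen for. With single samples left out the latter lay between 14.95 and 15.52. The step from P28 to adult differed by 0.30.

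**Figure D1:**
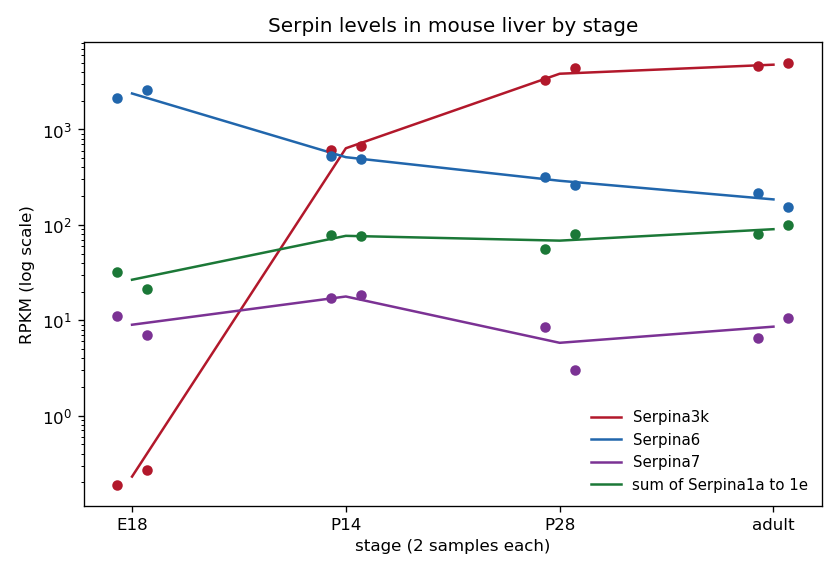
RPKM (log axis) of Serpina3k, Serpina6, Serpina7 and the sum of the 5 Serpina1 rows at E18, P14, P28 and adult. Each point is 1 sample, and lines join the means of the 2 samples of a stage. The lines of Serpina3k and Serpina6 cross between E18 and P14, and at P14 their means are 636 and 512 RPKM.

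The step from P14 to P28 shares no sample with the comparison that brought Serpina3k onto the list, and it was tested for all 8 genes, all of which passed the filter on low counts. Serpina3k rose 6.18-fold (log2 2.63, SE 0.18, edgeR adjusted p = 1.2e-05, n = 2 a stage, both P28 samples above both P14 samples). Without P14 replicate 2, a library with Xist transcript, the value was 2.71, and over every sample left out in turn it stayed between 2.42 and 2.80. It was the only member past both thresholds in edgeR, an adjusted p below 0.1 and a change over 3-fold. In this step 3.61% of the 17081 genes tested were called up and 5.98% down, and with 1 call nothing is read from the count. An adjusted p below 0.1 alone was reached by 5 of the 8 members (Serpina1a, Serpina1c, Serpina3k, Serpina6 and Serpina7) and by 53.8% of all genes, so the share was near the background. Members whose samples did not overlap between P14 and P28, on the TMM scale, numbered 3 higher and 3 lower, where 36.1% and 40.4% of all genes were. Their median log2 fold change was -0.08, beside -0.05 for all genes.

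**Figure D2:**
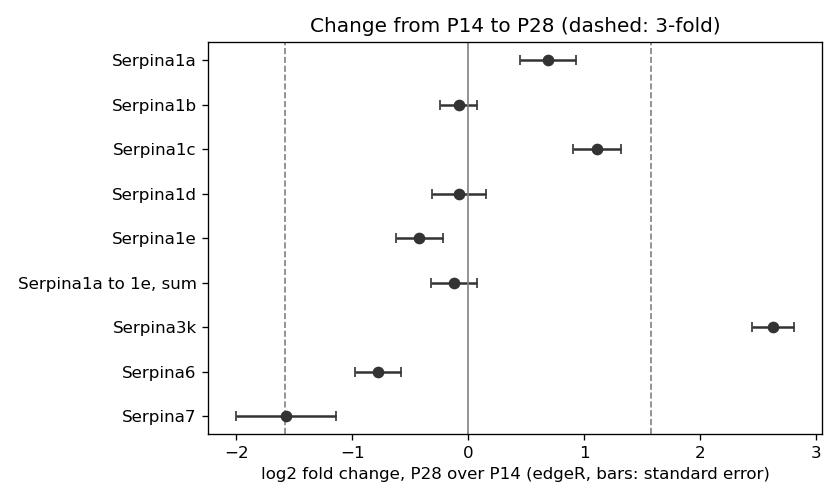
Log2 fold change from P14 to P28 (x axis) for each of the 8 genes and for the sum of the Serpina1 rows (y axis), from edgeR with its standard error, 2 samples a stage. Dashed lines mark 3-fold. Serpina3k lies at 2.63, Serpina7 at -1.57 next to the lower line, and the Serpina1 sum at -0.12.

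Serpina6, which binds glucocorticoids in plasma, had the opposite order. Its level was 2145 and 2624 RPKM at E18, 532 and 493 at P14, then 320 and 260 at P28 and lastly 217 and 153 in adult liver. Each stage lay below the one before without overlap. At E18 it ranked 18 and 16 among all genes, and in adult 307 and 422. The fitted log2 difference was -1.36 from E18 to P14 and -2.81 from E18 to adult, and without the TMM factors these were -2.23 and -3.67. Between P14 and P28 the log2 fold change was -0.78 (SE 0.20, edgeR adjusted p = 0.011), a 1.72-fold difference that is short of the 3-fold threshold. Over each sample left out in turn it lay between -0.96 and -0.63.

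From E18 to adult Serpina3k thus went from rank 8 to rank 1 of the 8 rows as counted, and Serpina6 from rank 1 to rank 2. Serpina6 made up 98.0 and 98.9% of the summed RPKM of the 8 genes at E18, and Serpina3k 0.00857 and 0.0103%. At P14 Serpina3k held 49.0 and 53.2% and Serpina6 43.3 and 39.3%. By adult stage Serpina3k held 93.9 and 94.9%, and Serpina6 4.38 and 2.96%. The summed level of the 8 genes was 2188 and 2652 RPKM at E18, 1230 and 1255 at P14, then 3687 and 4721 at P28 and lastly 4941 and 5183 in adult. P14 was thus the lowest stage for the summed RPKM of the 8 rows as counted, most of which came from Serpina3k and Serpina6. The summed hepatocyte markers were highest at P14. Among those markers Alb, Ttr, Apoa1, Trf and Ahsg were highest at P14, whereas Apob, Fgb, Cps1 and Asgr1 were higher in adult. With RPKM divided by the TMM factors, the E18 samples (1370 and 1723) overlapped those of P14 (1423 and 1469). These ranks, shares and sums describe the rows as counted. Any Serpina1 reads left out for matching several copies would change them, so they are not shares of the transcripts in the liver.

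Serpina7, which binds thyroid hormone in plasma, was highest at P14. It had 11.0 and 6.96 RPKM at E18, 17.3 and 18.2 at P14, then 8.57 and 3.04 at P28 and lastly 6.51 and 10.6 in adult liver. The P14 samples lay above all others. The P28 samples, from 2067 and 643 reads, stood wide apart and overlapped those of adult liver on the TMM scale and in RPKM. The log2 fold change from P14 to P28 was -1.57 (SE 0.43, edgeR adjusted p = 0.016), a 2.97-fold difference at the edge of the 3-fold threshold. Its size depended on P28 replicate 2, since it was -1.0 without that library (adjusted p = 0.035) and -2.53 without P28 replicate 1. It passed the 3-fold threshold with library size alone (-1.58), with no filter on low counts (-1.59) and in limma (-1.77). From E18 to adult the fitted difference was 0.81, and it turned to -0.04 without the TMM factors and to -0.07 in limma on log2 RPKM, so no direction is given for it.

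The 5 Serpina1 rows, copies of the elastase inhibitor gene, were all higher at P14 than at E18. Their sum had 31.8 and 21.4 RPKM at E18, 77.6 and 75.9 at P14, then 56.2 and 80.5 at P28 and lastly 80.5 and 99.7 in adult liver. The 2 libraries of P28 fell on either side of those of P14. The sum differed by 2.39 on the log2 scale from E18 to P14 and by 2.64 from E18 to adult. Its log2 fold change from P14 to P28 was -0.12 (SE 0.20, edgeR adjusted p = 0.65), and without P28 replicate 1 it was 0.10.

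Within the sum, the 3 higher copies kept their order by stage mean and the 2 lower ones overlapped each other until adult, where Serpina1c was above Serpina1a. Serpina1e was the highest, with 13.7 and 9.52 RPKM at E18, 32.6 and 32.4 at P14, then 19.7 and 27.7 at P28 and lastly 27.5 and 37.5 in adult. Serpina1d followed, with 11.7 and 7.40, then 23.2 and 20.8, 15.7 and 25.1, and 24.6 and 30.1 RPKM. Serpina1b had 4.94 and 3.46 RPKM at E18, then 18.4 and 18.5, 15.1 and 19.1, and 20.1 and 22.2. The samples of Serpina1e and Serpina1d overlapped at E18, P28 and adult and stood apart at P14, and those of Serpina1d and Serpina1b overlapped at P28. Serpina1a and Serpina1c had at most 6.10 RPKM in any sample. Serpina1a had 0.788 and 0.573 RPKM at E18, 1.69 and 1.94 at P14, then 2.15 and 3.60 at P28 and lastly 3.14 and 3.83 in adult. Serpina1c had 0.676 and 0.482, then 1.78 and 2.24, 3.53 and 4.95, and 5.15 and 6.10 RPKM. Unlike the other copies, these 2 were higher at P28 than at P14 without overlap. In the GENCODE transcripts they are also the copies with the smallest share of windows of their own. How far reads of other copies entered or left these rows was not tested.

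**Figure D3:**
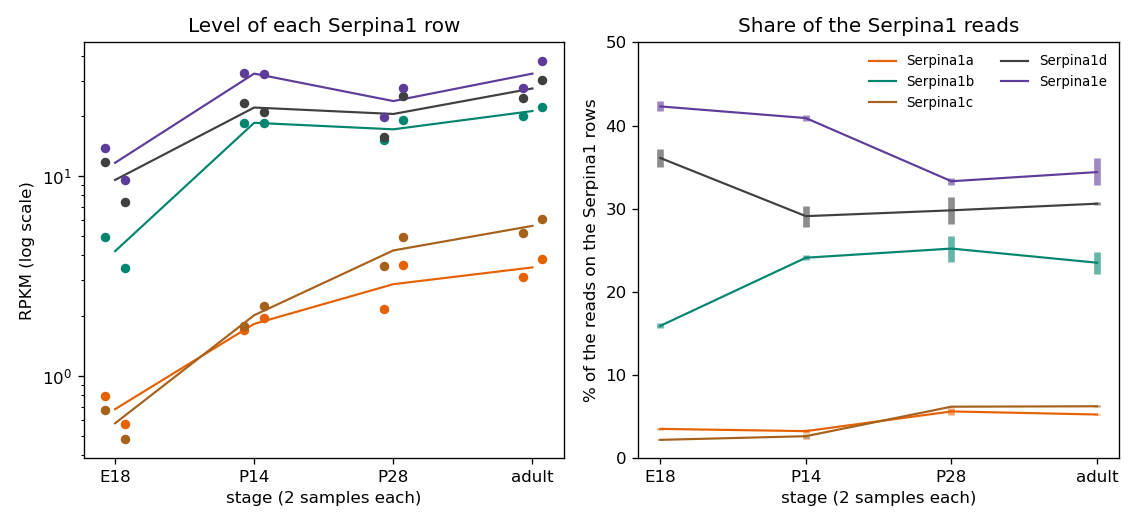
Left, RPKM (log axis) of the 5 Serpina1 rows by stage, 1 point per sample with lines through the stage means. Right, the share of the reads on the 5 rows that each row took, with the mean as a line and bars from the lower to the higher sample. Serpina1c takes 2.19% at E18 and 6.23% in adult, and Serpina1e 42.3% and 34.4%.

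Between P14 and P28 Serpina1c had a log2 fold change of 1.11 (SE 0.21, edgeR adjusted p = 0.0026) and Serpina1a of 0.69 (SE 0.24, adjusted p = 0.043). Serpina1e had -0.42 (SE 0.20, adjusted p = 0.11), and Serpina1b and Serpina1d each had -0.08 (adjusted p of 0.72 and 0.82). None of the 5 passed the 3-fold threshold. As shares of the reads on the 5 rows, Serpina1c held 2.63 ± 0.46% at P14 and 6.18 ± 0.10% at P28 (SD, n = 2), and 6.23 ± 0.20% in adult. Serpina1e held 40.9 ± 0.45% at P14 and 33.3 ± 0.56% at P28. Serpina1b went from 15.9 ± 0.44% at E18 to 24.1 ± 0.46% at P14, and Serpina1d from 36.1 ± 1.6% to 29.1 ± 1.7%. With 2 samples against 2, an exact permutation test of such shares cannot give a p below 0.33, so none was run.

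From E18, 7 of the 8 genes were higher at P14 without overlap on the TMM scale, and Serpina6 was lower, where 42.3 and 44.3% of all genes tested were. From E18 to adult these counts were again 7 and 1, where 42.4 and 47.5% of all genes were. Serpina7 is among the 7 on the TMM scale and overlaps in RPKM. From P28 to adult, 4 members were higher without overlap and Serpina6 was lower, beside 28.8 and 31.0% of all genes. The comparisons that share a stage share its samples, and nothing is read from these counts.

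The nearest relatives of the members were the 17 other rows whose symbols begin with Serpina, all on chromosome 12. Of these, 14 were called up from E18 to P14, 8 from P14 to P28, 1 from P28 to adult and 16 from E18 to adult, and 0 were called down in any of the 4 comparisons by edgeR with TMM over all 8 samples, by DESeq2 or by limma. At an unadjusted p under 0.05 in edgeR, 1 row was lower in each of the 3 steps and 0 from E18 to adult. Of all genes, 13.8, 3.61, 0.767 and 16.8% were called up, and 15.4, 5.98, 2.24 and 23.8% down. The split from E18 depends on the scaling, since 2353 genes were called up and 2636 down from E18 to P14 with TMM, 1266 and 5095 without it, and 1035 and 3760 in limma. From E18 to adult these were 2863 and 4061, 1653 and 6159, and 1435 and 4821. Their median log2 fold changes were 4.17, 1.49, 0.34 and 5.97, beside -0.03, -0.05, 0.00 and -0.11 for all genes. The first count was 14 without E18 replicate 1, 12 without the TMM factors and 11 in limma, and the second was 9 without P14 replicate 2. From E18 to P14, edgeR called 1 row down without the TMM factors, without E18 replicate 2 or without P14 replicate 1, and at a 2-fold threshold. Without the TMM factors 15 rows were called up and 1 down from E18 to adult. The comparisons share samples, and the 17 rows hold near copies that are not independent of each other.

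The row with the largest step after P14 was Serpina4-ps1, annotated as an unprocessed pseudogene. It had 0.490 and 0.297 RPKM at E18 and 0.348 and 0.367 at P14, and then 476 and 226 at P28 and 627 and 1256 in adult. It rose by 9.98 on the log2 scale from P14 to P28 (SE 0.57, edgeR adjusted p = 4.8e-06). Its duplicates stand apart at both late stages, by far less than the rise from P14. Serpina12 (vaspin) rose by 6.22 (SE 0.24, adjusted p = 7e-07) from 0.393 ± 0.0023 to 28.7 ± 4.2 RPKM in the same step, and by a further 1.85 to adult (adjusted p = 0.0005), where it had 105 ± 26 RPKM. It was the 1 row called between P28 and adult. Serpina5 (protein C inhibitor) rose by 3.03 from P14 to P28 (SE 0.25, adjusted p = 3.3e-05), from 0.576 ± 0.15 to 4.60 ± 0.88 RPKM.

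Serpina9, Serpina11 and Serpina3n rose before P14. Serpina9 rose by 8.25 from E18 to P14 (SE 0.26, edgeR adjusted p = 1.8e-08), from 6 reads in each E18 sample, and its change from P14 to P28 was 0.39 (adjusted p = 0.069). Serpina11 rose by 3.26 (SE 0.10, adjusted p = 1.8e-08) to 279 ± 2.9 RPKM at P14 and then changed by -0.19 (adjusted p = 0.14), although 42.4% of its windows match Gm28577, so its row is uncertain. Serpina3n, an acute-phase antichymotrypsin, rose by 4.17 (SE 0.28, adjusted p = 1.3e-06) to 213 ± 17 RPKM at P14. Serpina10, the protein Z-dependent inhibitor of coagulation factor X, was already at 106 ± 0.58 RPKM at E18, and its 2.45-fold difference to P14 did not pass the 3-fold threshold. It was higher again at P28, by log2 0.45 (SE 0.10, adjusted p = 0.0049), short of 3-fold, at 192 ± 14 RPKM, and it had 218 ± 5.8 in adult.

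**Figure D4:**
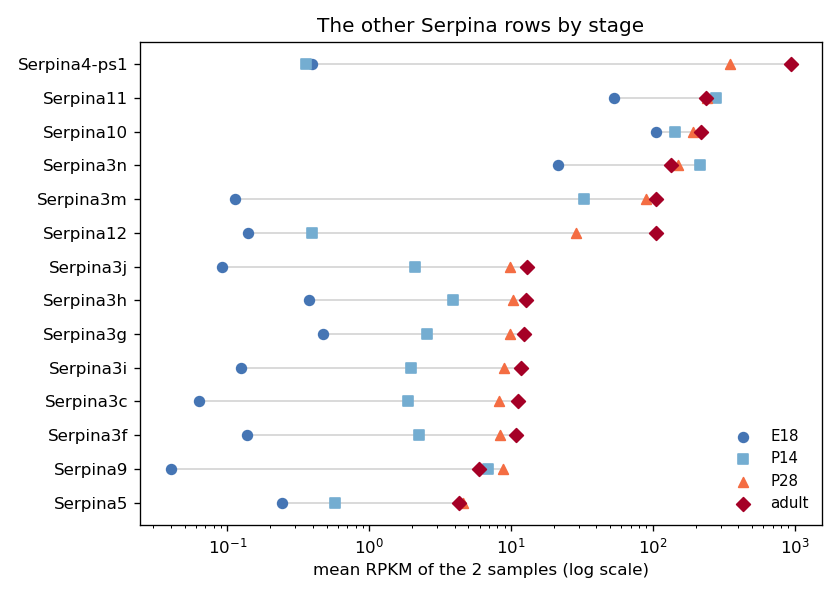
Mean RPKM (log axis) of the 2 samples at each stage for the Serpina rows outside the 8 genes that reach 1 RPKM in some stage, ordered by adult level. Serpina4-ps1 and Serpina12 move mainly between P14 and P28, and Serpina9 and Serpina11 mainly between E18 and P14.

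Close relatives of Serpina3k were higher after E18 as well. Serpina3m, which shares 91.0% of its coding sequence and 6.1% of its transcript windows with Serpina3k and is annotated from the same start position, had 0.114 ± 0.040 RPKM at E18 and 105 ± 4.6 in adult. It rose by 8.99 on the log2 scale from E18 to P14 (SE 0.24, edgeR adjusted p = 9.8e-09). Its change from P14 to P28 was 1.49 (SE 0.15, adjusted p = 9.8e-05), or 2.80-fold, short of the 3-fold threshold. Serpina3c rose by 2.15 in that step (SE 0.19, adjusted p = 5.1e-05). The rows Serpina3f, Serpina3g, Serpina3h, Serpina3i and Serpina3j had nearly the same read count in each late sample. The highest of the 5 was 1.12 and 1.08 times the lowest at P28 and 1.08 and 1.05 times in adult, against 1.97 and 1.83 times at P14 and 4.09 and 7.09 times at E18. Their mean count was 0.546 and 0.475% of that of Serpina3k at P14, and it lay between 0.292 and 0.350% in the P28 and adult samples. Between 95.4 and 100.0% of the windows of these 5 transcripts had no match in another gene, and whether the counts are separate signals was not tested. All but Serpina3h (log2 1.44) were called up from P14 to P28, so these rows carry 4 of the 8 calls.

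Named by likeness of pattern over the 8 samples, among 8684 genes outside the Serpina rows, the genes nearest to Serpina3k were Cyp2c29, Azgp1 and Cyp1a2. They differed from it by 0.41, 0.54 and 0.83 (root mean square of the centred log2 CPM). Cyp2c29 and Cyp1a2 encode drug-metabolizing cytochromes P450. Cyp2c29 had 0 and 0.0397 RPKM at E18, 115 and 112 at P14, then 817 and 777 at P28 and lastly 789 and 658 in adult. Nearest to Serpina6 were Cyba (0.14), a subunit of the phagocyte NADPH oxidase, Gltp (0.17) and Ssbp4 (0.18). Cyba had 84.5 and 93.8 RPKM at E18 and 6.83 and 6.43 in adult. Nearest to the Serpina1 sum were Ppap2b (0.14), Gpld1 (0.17) and Zcchc24 (0.20). Gpld1, a plasma phospholipase made by the liver, had 26.1 and 18.0 RPKM at E18 and 73.1 and 76.5 at P14. Nearest to Serpina7 was Jun (0.31), an immediate early gene, followed by Csad (0.45) and Tuft1 (0.47). The P28 duplicates of Jun had 7.80 and 2.77 RPKM. The search used these same samples, so a split like that of Serpina7 is part of how Jun was chosen.

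The genes that work with these serpins were counted from lists. Of 16 proteases of the kinds met by clade A inhibitors, 12 passed the filter, and 2 were called up and 7 down from E18 to P14 in edgeR (median log2 -2.32), with 1 up in limma, then 1 up and 2 down to P28 (median -1.0). Over all genes, edgeR called 13.8% up and 15.4% down in the first of these steps, and 3.61% and 5.98% in the second. The neutrophil protease Prtn3 had 105 and 101 RPKM at E18, 2.52 and 2.86 at P14 and at most 1.14 later. Its fellow Elane, the classical target of alpha-1-antitrypsin, was called down in both steps, by log2 -4.24 (SE 0.23, edgeR adjusted p = 3.2e-07) and -3.46 (SE 0.31, adjusted p = 5.1e-05). All 7 neutrophil markers, Elane among them, were called down in both steps, while the Serpina1 sum was at its lowest at E18. Ctrb1, a pancreatic chymotrypsinogen, had 119 and 322 RPKM at E18 and at most 0.397 later, and 6 of the 8 acinar markers tested were called down from E18 to P14. The 2 called up were Tmprss6, a hepatocyte protease of iron control, and Klkb1 (plasma kallikrein). Tmprss6 had 29.6 and 33.8 RPKM at E18 and 153 and 155 at P14. Klkb1 had 26.2 and 21.1 and then 47.9 and 50.1. Cela1, named an elastase, rose from P14 to P28 by 2.44 (SE 0.15, adjusted p = 7.1e-06), from 15.8 RPKM in both samples to 81.6 and 85.1.

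Among 16 genes of glucocorticoid and thyroid hormone handling, 9 were called up and 2 down from E18 to P14 (median 2.05), beside 13.8% and 15.4% of all genes. From P14 to P28, 1 was called up and 2 down (median 0.01), beside 3.61% and 5.98% of all genes, and nothing is read from these few calls. Hsd11b1, which regenerates active glucocorticoid inside hepatocytes, rose by 6.76 on the log2 scale from E18 to P14 (SE 0.15, edgeR adjusted p = 5.7e-09), from 5.38 and 5.94 to 348 and 327 RPKM. Tat, a classical glucocorticoid-induced enzyme, rose by 10.81 (SE 0.24, adjusted p = 4.8e-09). At the same stages Serpina6, the plasma carrier of glucocorticoid, was lower at P14 than at E18, as given above. Of the other thyroid hormone carriers, Ttr (transthyretin) rose by 3.33 (SE 0.16, adjusted p = 1.6e-07) to 8600 and 9212 RPKM, and Alb (albumin) by 2.09 (SE 0.19, adjusted p = 1e-05). Both were far above Serpina7 in RPKM at every stage. Thrsp, a thyroid hormone-responsive gene of fat synthesis, rose in both steps, by 8.93 and 3.93 (adjusted p of 4.1e-08 and 5.3e-06). It was the 1 gene of the list called up from P14 to P28. The 2 called down from E18 to P14 were Hsd11b2 (-2.3) and Slc16a10 (-2.04). Those called down from P14 to P28 were Hsd11b2 (-2.41) and Dio3 (-3.36). In that step Ttr changed by -0.48 and Alb by -0.42, both short of 3-fold.

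Of 11 liver serpins of other clades, 4 were called up and 1 down from E18 to P14 (median 1.10), with 2 up in limma. The counts were 0 up and 1 down from P14 to P28 in edgeR and DESeq2 (median -0.39), where 8 of 11 were lower without overlap, beside 40.4% of all genes, and 2 were up and 7 down at an unadjusted p under 0.05. The shares of all genes called by edgeR were 13.8% up and 15.4% down from E18 to P14, and 3.61% and 5.98% from P14 to P28. Serpinc1 (antithrombin) had 347 and 409 RPKM at E18 and 1464 and 1465 at P14. Its change from P14 to P28 was -0.05 (SE 0.13, edgeR adjusted p = 0.77). Serping1 (C1 inhibitor) rose by 3.16 to P14 (SE 0.14, adjusted p = 8.2e-08). Serpinf2 (antiplasmin), Serpind1 (heparin cofactor II) and Serpinf1 were at 271 RPKM or more in every sample.

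Of 14 hepatocyte transcription factors, 7 were called up and 0 down from E18 to P14 in edgeR (median 1.45). DESeq2 called 5 up and limma 3. On the TMM scale all 14 were higher without overlap, beside 42.3% of all genes. In RPKM the samples of Foxa1, Nr5a2, Stat3 and Prox1 overlapped between these stages, so the count depends on the scaling. In the step from P14 to P28, 0 were called by edgeR, DESeq2 or limma (median 0.29), with 5 up and 0 down at an unadjusted p under 0.05 in edgeR. Cebpa had 38.6 and 45.7 RPKM at E18 and 141 and 134 at P14, a rise of 2.56 (SE 0.13, edgeR adjusted p = 2.4e-07), and Hnf4a rose by 1.89 (SE 0.15, adjusted p = 3.4e-06). Of 13 chaperones and other proteins of the secretory pathway, 2 were called up from E18 to P14 in edgeR (0 in limma) and 1 from P14 to P28, where the median was 0.78 and 11 of 13 were higher without overlap, beside 36.1% of all genes. For both lists, the shares of all genes called by edgeR were 13.8% up and 15.4% down from E18 to P14. They were 3.61% and 5.98% from P14 to P28. Hspa5 (BiP) had 550 and 374 RPKM at P14 and 735 and 1159 at P28 (log2 1.07, SE 0.24, adjusted p = 0.0064), short of 3-fold. Derl3, which serves the removal of misfolded secretory proteins, was the 1 called in that step, by 4.57 (SE 0.68, adjusted p = 0.00076), from 0.797 and 0.729 to 8.33 and 27.2 RPKM.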

How the data were processed

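Per the labels, 2 whole-liver samples were taken at each of 4 stages. Stage and replicate number came from the sample titles. The labels name Trizol for extraction, and the paper's Methods name the RNeasy kit. The authors deposited, for 22059 gene symbols, raw read counts and RPKM, computed from the counts by transcript length and mapped reads. The submitters' processing notes name the build mm9. The aligner and the counter are not given in the sources used here. The authors tested with DESeq at a false discovery rate of 0.1.

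From the counts, genes were kept by filterByExpr (17081 genes, all 8 members among them), scaled by TMM and fitted with edgeR (version 4.0.16) glmQLFit and glmQLFTest, with 1 coefficient per stage over all 8 samples. A gene was called at a Benjamini-Hochberg adjusted p below 0.1, over all genes tested, and a change over 3-fold. For the members only P14 to P28 was tested. The members and lists were chosen with earlier results of these data known. Other genes named are Serpina rows of at least 1 RPKM in some stage, and Serpina1f for its low counts. Also named are the 3 nearest in pattern to each of Serpina3k, Serpina6, Serpina7 and the Serpina1 sum, among genes of at least 10 CPM. From each list, up to 5 examples were taken by RPKM. Elane, Derl3, Foxa1, Nr5a2, Stat3, Prox1, Hsd11b2, Slc16a10 and Dio3 were named after their values were seen. Markers of cell types and sex are named where their values are given. The pattern search used log2 CPM with a prior count of 2.

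DESeq2 (version 1.42.0), limma (version 3.58.1) on log2(RPKM + 0.1), other filters, scalings and thresholds, a replicate block and each sample left out were the alternatives. The fits were tested on simulated data first. Depth was 68154675 to 106055723 reads on genes. Reads of a member numbered 29 and 38 for Serpina3k and 90 and 58 for Serpina1c at E18, where counting error is largest. Counts of duplicates differed by more than sampling noise at every stage. Transcripts came from GENCODE M21 (GRCm38). A search of promoter sequence is not reported here. R (version 4.3.3), Python (version 3.11.15) and matplotlib (version 3.10.9) were used.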

Additional observations from a re-analysis of the deposited data

How the results depend on the processing

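The call of Serpina3k from P14 to P28 held under every alternative tried. The count of members called in that step was 1, and it was 2, with Serpina7 added, with no filter on low counts, with at least 10 counts in every sample, with library size alone and in limma on log2 RPKM, and 3 at a 2-fold threshold. With the replicate number as a block it was also 2 (Serpina7 at -1.65). Deviations from the stage mean of log2 CPM were correlated between the replicate 1 samples of 6 stage pairs, over 8701 genes. The correlations were -0.325 to 0.117 (mean -0.099), and whether samples of the same number share more than the number was not tested. Leaving out samples singly, the count lay between 1 and 2, and was 2 without P14 replicate 1 or P28 replicate 1. The Serpina1 sum lay between -0.39 and 0.10 and changed sign without P28 replicate 1 (0.10). That library also turned Serpina1b (-0.24 to 0.07) and Serpina1d (-0.44 to 0.21) from P14 to P28 and Serpina1a (-0.05 to 0.66) from P28 to adult, and P28 replicate 2 turned Serpina7 (-0.04 to 1.49) from P28 to adult, as ranges over samples left out. From E18 to adult Serpina7 was -0.04 with library size alone and -0.07 in limma. The other Serpina genes called from P28 to adult numbered 1, but 2 at a 2-fold threshold, and 1 to 2 with a sample left out. Counts over all genes were 4989, 1638, 513 and 6924 from E18 to P14, P14 to P28, P28 to adult and E18 to adult. The minimum of 10 counts gave 3128, 795, 260 and 4561, from fewer genes tested. In limma P14 to P28 gave 864 and P28 to adult 242. A 2-fold threshold gave 7720, 3319 and 1056 for the first 3. With a sample left out they ranged over 4999 to 5268, 1468 to 1818, 393 to 550 and 6912 to 7183. Where not stated, the cause of a change was not tested. Depth limits rows with few reads, such as Serpina3k at E18, Serpina9 at E18 (6 reads in each sample) and Serpina1f (2 to 9 reads from P14 on).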
